A study of Mus musculus with 144 samples.

Results

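The autophagy and lysosome genes examined here were 41 genes taken by name from the 21869 genes of the deposited count tables of mouse liver and brown adipose tissue (BAT). They were the core autophagy genes, the cargo receptors, the transcription factors Tfeb and Tfe3, and lysosomal membrane and lumenal proteins, and were found as the rows whose symbol was in that list. All 41 were present and all 41 passed the filter on low counts in both tissues, among 11926 genes tested in liver and 10966 in BAT. The rule used the names and no measured value, though the list was drawn up with earlier results of these data known.

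Macroautophagy encloses cytoplasm in a double membrane, the autophagosome, and delivers it to the lysosome. A kinase complex around ULK1 starts the process, a PI3-kinase complex marks the site with a lipid, and membrane is supplied through ATG9A, ATG2 and WIPI proteins. An ATG12-ATG5-ATG16L1 conjugation system then attaches LC3 and GABARAP proteins of the ATG8 family to the membrane, where cargo receptors bind them. In liver, autophagy is known to respond to feeding and fasting through mTORC1, AMPK and the transcription factor TFEB, and to supply amino acids, glucose precursors and fatty acids between meals.

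The study measured mRNA by sequencing in male wild-type C57BL/6J mice aged 6 months that had been held on a feeding regimen for 10 weeks, with running wheels. Liver and BAT were collected every 4 h from 0 to 44 h, 12 time points in all, in constant darkness according to the series' text, while the sample labels give a light-dark cycle. The comparisons ask how the hours and the amount of food set the daily rhythm of each tissue. There were 144 samples, 120 of liver and 24 of BAT, and 143 had counts.

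Liver came from 5 regimens of 24 libraries each. AL mice had food at all times. CR-day and CR-night mice received 70% of baseline intake within 6 h, from CT 0 in the day-fed and from CT 12 in the night-fed group (CT, circadian time, with activity onset of a nocturnal mouse at CT 12). TR-day and TR-night mice had food within the same 6 h windows with no reduction of the amount named. BAT came from AL and CR-day only. The letters A and B at each time point are biological replicates by the series' text. No label states that they came from separate animals, so p-values measure the spread between these libraries. BAT had letter A for AL and letter B for CR-day, so letter and regimen cannot be told apart there.

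Liver libraries held 5830040 to 26649153 counts (median 10704775) and BAT libraries 6978002 to 11607273 (median 9351383). The mean mitochondrial share of reads was 61.2% in AL BAT and 61.7% in CR-day BAT. In liver it was 22.8% for letter A of AL, 13.3% for letter B of AL and 13.7% for letter A of CR-day, and 27.1% to 32.1% for each remaining liver set. Gene levels in those 3 sets differed from the other liver sets along the GC content of the genes, which bears on the level comparisons below and is given there. The liver marker Alb had a mean of 0.220 and 0.461 CPM (counts scaled to a common library total) in the 2 BAT groups, and the BAT marker Ucp1 had 2700 and 1721 CPM there. All 5 skeletal muscle markers were detected in BAT, with a summed level of 2.55 to 1805 CPM in AL and 59.1 to 651 CPM in CR-day. The 10 macrophage and Kupffer cell markers, whose cells are rich in lysosomes, were all detected in liver, and their summed level had medians of 120 and 176 CPM in AL letters A and B against 57.0 to 132 CPM in the other sets. In bulk tissue, fewer cells of a type and less RNA per cell cannot be told apart.

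In TR-day liver, the letter A libraries at 0 and 44 h went against their label by clock genes. Arntl, the clock activator, stood at 24.0 CPM in the 0 h library against 2.85, 3.87 and 2.72 CPM in the other 3 at that time of day, and at 33.0 CPM in the 44 h library against 2.74 to 8.24 CPM. Dbp, an output gene of the clock, stood at 2.63 and 0.606 CPM against 22.1 to 66.3 CPM. Results for TR-day are given with both libraries, and without them where a count changed.

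Promoter sequences are shown for members that carry an E-box, since E-box motifs are bound by clock activators and, in the form TCACGTGA, by TFEB and TFE3. RefSeq on GRCm38.p6 gave 36 promoters of 32 members, each from 250 bases before to 50 after the start site. TCACGTGA on either strand was in the promoters of 3 members (Atg3, Ctsd and Mcoln1) and in 0.974% of 32851 promoters of all genes. CACGTG, which is the centre of TCACGTGA, was in those of 10 members and in 7.15% of all promoters. The D-box TTATGTAA, the motif of DBP, was in 0 member promoters and in 0.938% of all. The windows lie at chr7:142387859-142387986 on the minus strand for Ctsd, chr8:3500413-3500538 on the plus strand for Mcoln1, chr7:138909549-138909674 on the minus strand for Bnip3, chr14:47568415-47568495 on the minus strand for Atg14 and chr8:13159040-13159165 on the plus strand for Lamp1. Capitals mark TCACGTGA in the first 2 and CACGTG in the other 3.
Ctsd: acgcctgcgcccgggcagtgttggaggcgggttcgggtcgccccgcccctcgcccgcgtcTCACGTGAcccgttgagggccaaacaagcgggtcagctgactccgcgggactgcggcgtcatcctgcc
Mcoln1: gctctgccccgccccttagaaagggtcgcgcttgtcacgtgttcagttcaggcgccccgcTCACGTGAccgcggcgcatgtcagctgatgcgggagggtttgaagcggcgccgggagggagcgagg
Bnip3: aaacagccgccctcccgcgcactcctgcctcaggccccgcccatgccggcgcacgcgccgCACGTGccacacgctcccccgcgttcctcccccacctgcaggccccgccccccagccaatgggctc
Atg14: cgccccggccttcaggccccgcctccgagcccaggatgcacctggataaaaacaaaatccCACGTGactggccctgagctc
Lamp1: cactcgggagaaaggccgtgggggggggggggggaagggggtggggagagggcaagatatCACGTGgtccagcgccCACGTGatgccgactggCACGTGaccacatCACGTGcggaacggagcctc
The motif starts 99 bases before the start site in Ctsd, 46 before in Mcoln1 and 108 before in Bnip3. Of the 10 members with CACGTG, 3 were rhythmic in a liver group, as described below (Bnip3 and Atg14 in 4 groups, Ctsl in 1), against 23 of all 41 members. The other 7, Lamp1 with 4 copies among them, were rhythmic in 0 liver groups. A match is a match of letters and no binding was measured.

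Per base of the deposited gene length, the most abundant member in AL liver was lysosomal, and the next ones were lysosomal or of the ATG8 family. The order depends on that length. By CPM, Lamp2 (602 CPM, 9552 bases) stood above Lamp1 (457 CPM, 2675 bases) in AL liver. The membrane glycoprotein Lamp1 had 176 ± 28.0 RPKM (reads scaled to deposited gene length and library total, SD, n = 24), and the protease cathepsin D (Ctsd) 87.9 ± 28.1. The acid lipase Lipa had 80.4 ± 20.3 and the protease cathepsin B (Ctsb) 72.8 ± 20.4. Of the ATG8 family, Gabarap had 83.8 ± 14.4 RPKM and Gabarapl1 71.3 ± 23.3, against 8.30 for Map1lc3a and 5.31 for Map1lc3b. The lowest was Tfeb at 0.790 ± 0.379 RPKM. In AL BAT the order was led by Ctsd at 148 ± 35.5, Ctsb at 97.6 ± 18.6 and Lamp1 at 90.6 ± 20.6 RPKM (SD, n = 12). Lipa was at 18.4 and Gabarapl1 at 19.1 RPKM in BAT, and Tfeb was again lowest at 0.684 RPKM. These neighbours overlapped within their SDs, while Lamp1 in liver stood above Ctsd by more than both SDs together. The median member was at 10.5 RPKM in AL liver and 4.20 in AL BAT. Mitochondrial reads were 61.2% of all reads in AL BAT, against 22.8% and 13.3% in letters A and B of AL liver. Their part in the RPKM differences between tissues was not tested.

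Between 8 and 18 of the 41 members had a daily rhythm in liver, depending on the regimen. With food at all times 8 members were rhythmic, against 12.4% of all genes tested. Under CR-day 10 were rhythmic (16.4% of all genes), under TR-day 11 (15.5%), under CR-night 18 (35.3%) and under TR-night 13 (26.4%). Without the 2 TR-day libraries that went against their label, 14 members were rhythmic under TR-day, with the share of all genes in that fit not given here. A gene was called rhythmic when a 24 h cosine improved the fit at a Benjamini-Hochberg adjusted p under 0.05 over all genes, by the quasi-likelihood test of edgeR. In all, 23 of 41 members (56.1%) were rhythmic in at least 1 liver group, against 50.3% of all genes tested. Rhythm in 4 or 5 liver groups was seen in 9 members (22.0%), against 7.50% of all genes. A correction for GC content and transcript length raised the count to 16 under CR-day, with 25.0% of all genes, and 21 under TR-night, with 37.0%. With 1 letter or 1 day of sampling left out, the counts ranged from 2 to 10 in AL, 2 to 9 in CR-day, 2 to 10 in TR-day, 8 to 16 in CR-night and 7 to 15 in TR-night. Those fits held fewer libraries, and the share of all genes in them is not given here. Their counts are thus not read as particular to the members.

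**Figure D1:**
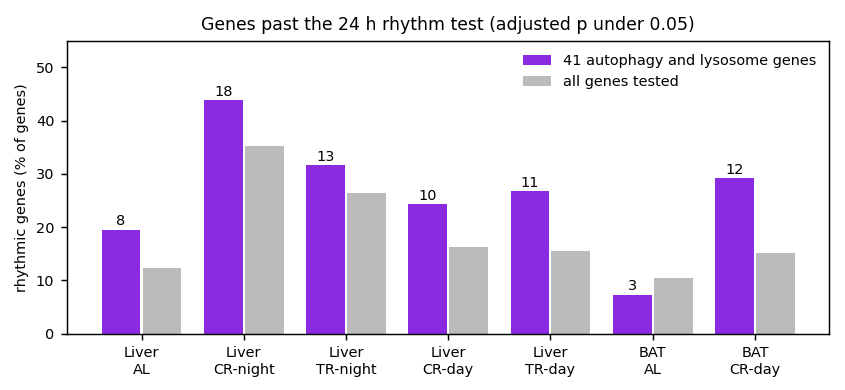
Percent of the 41 members and of all genes tested that were rhythmic in each liver and BAT group at an adjusted p under 0.05. The members' share lay above that of all genes in the 5 liver groups and in CR-day BAT and below it in AL BAT, and both shares were largest in CR-night liver (18 of 41 members, 35.3% of all genes).

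By step of autophagy, the counts of rhythmic members were as follows, without a test of a difference between steps and beside 50.3% of all genes rhythmic in at least 1 liver group. All 5 cargo receptors and all 3 members of the PI3-kinase complex were rhythmic in at least 1 liver group. So were 3 of 5 ATG8 proteins, 3 of 4 initiation genes, 3 of 5 membrane supply genes and 3 of 7 lumenal lysosomal genes. They were joined by 1 of 6 conjugation genes (Atg16l1), 1 of 4 lysosomal membrane genes (Npc1) and 1 of 2 transcription factors (Tfe3). The 18 members called rhythmic in 0 liver groups held the kinase Ulk1, the conjugation genes Atg3, Atg4b, Atg5, Atg7 and Atg12, the ATG8 genes Map1lc3a and Gabarap, Tfeb, Lamp1, Lamp2 and the channel Mcoln1. They also held the lumenal genes Ctsb, Ctsd, Gaa and Hexa, and the membrane supply genes Atg2a and Atg9a.

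The members rhythmic in all 5 liver groups were Gabarapl1, Npc1, Pik3c3 and Optn. Gabarapl1, an ATG8 protein of autophagosome formation (ENSMUSG00000030161.8, chromosome 6, 129533160 to 129541434, plus strand, coordinates as deposited with no build named), ranged in AL liver from 73.8 to 234 CPM (median 130). By time of day its AL level was 110 ± 26.7, 178 ± 15.8, 195 ± 26.3, 135 ± 23.3, 97.8 ± 15.1 and 114 ± 10.7 CPM at CT 0, 4, 8, 12, 16 and 20 (SD, n = 4 at each). The libraries at CT 4 and 8 were high and those at CT 16 were low. Under CR-day the same times gave 170 ± 43.0, 102 ± 30.0, 86.3 ± 30.4, 115 ± 32.0, 173 ± 45.7 and 203 ± 48.8 CPM. The low point had moved to CT 8, where AL was highest, and the SDs were wider. Under CR-night they gave 108 ± 30.2, 120 ± 24.3, 128 ± 37.6, 109 ± 19.6, 59.0 ± 14.1 and 83.2 ± 21.7 CPM, again low at CT 16. The fitted peak was at CT 6.68 ± 0.851 in AL (SE in h, amplitude 0.48 ± 0.11 log2 from mean to peak, adjusted p = 0.00118), CT 19.7 ± 0.623 in CR-day (adjusted p = 1.38e-05) and CT 20.2 ± 0.581 in TR-day (1.76e-07). It was at CT 5.51 ± 0.863 in CR-night (0.00127) and CT 7.55 ± 0.718 in TR-night (3.64e-05).

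Npc1, which moves cholesterol out of the lysosome (ENSMUSG00000024413.13, chromosome 18), ranged from 72.7 to 232 CPM in AL liver (median 123). It was highest at CT 8 in AL (190 ± 35.9 CPM) and CR-night (216 ± 24.7 CPM), at CT 12 in TR-night (179 ± 13.2 CPM) and at CT 0 in CR-day (194 ± 42.4 CPM) and TR-day (154 ± 36.8 CPM; SD, n = 4 each). In the day-fed groups the level at CT 8 was 88.5 ± 20.0 CPM for CR-day and 71.3 ± 4.24 CPM for TR-day, below every AL mean of the day in both. Its fitted rhythm rose 1.94-fold from trough to peak in AL (peak CT 10.1 ± 0.615, adjusted p = 2.7e-06), 2.40-fold in CR-day (CT 21.5 ± 0.465, 1.41e-09) and 2.37-fold in TR-day (CT 21.6 ± 0.473, 1.69e-09). It rose 2.38-fold in CR-night (CT 8.69 ± 0.470, 2.05e-10) and 2.66-fold in TR-night (CT 9.88 ± 0.417, 5.41e-12).

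Pik3c3, the lipid kinase VPS34 (ENSMUSG00000033628.15, chromosome 18), had shallower rhythms. Its level in AL ran from 12.6 ± 1.31 CPM at CT 16 to 17.1 ± 2.32 at CT 4, in CR-night from 12.0 ± 1.62 at CT 16 to 22.1 ± 1.08 at CT 4, and in CR-day from 12.5 ± 2.30 at CT 4 to 19.4 ± 3.18 at CT 20. The high and low times of CR-day were thus reversed against the other 2. The fitted peaks were CT 4.87 ± 1.04 in AL (adjusted p = 0.0217), CT 18.9 ± 0.650 in CR-day (3.05e-05) and CT 5.15 ± 0.594 in CR-night (3.83e-06). Optn, a cargo receptor also used in mitophagy (ENSMUSG00000026672.11, chromosome 2, 5020642 to 5064045), peaked at CT 12.1 ± 0.997 in AL, CT 23.4 ± 0.771 in CR-day, CT 11.5 in CR-night and CT 12.3 in TR-night. Its level at CT 12 was 52.9 ± 8.84 CPM in CR-day and 80.8 ± 6.22 CPM in CR-night, which did not overlap within 1 SD.

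**Figure D2:**
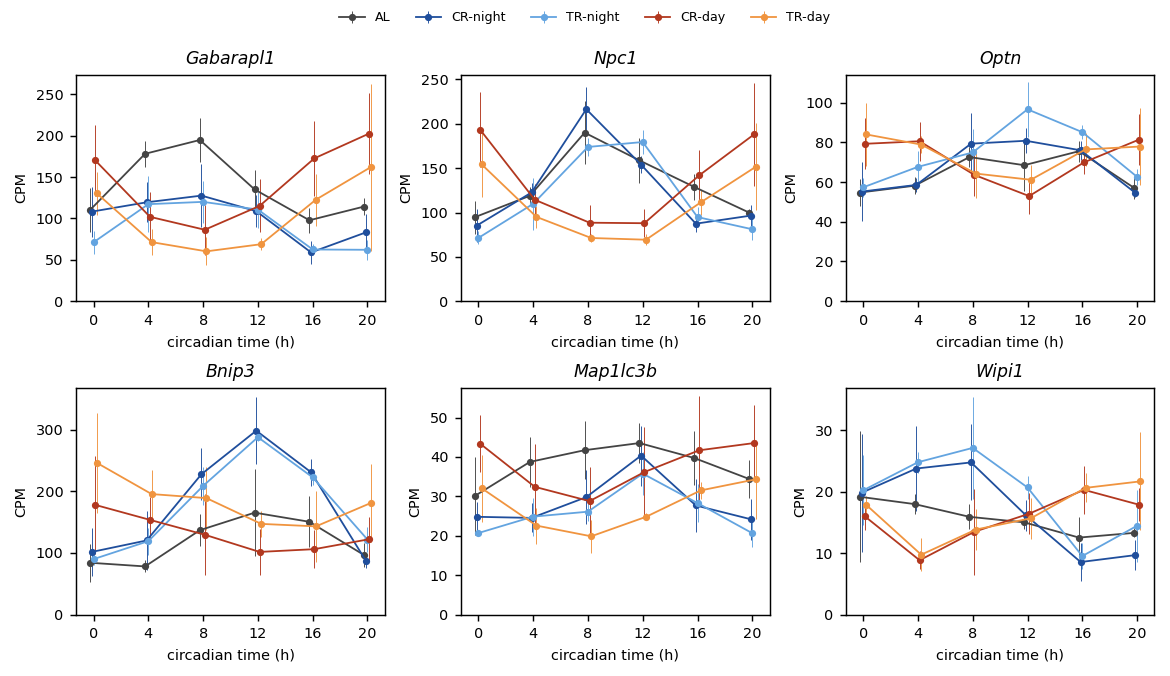
Liver level in CPM of the members shown against CT, as mean and SD of 4 libraries per time of day, for the 5 regimens. Gabarapl1 and Npc1 in the day-fed groups were low at CT 8, where AL and the night-fed groups were high.

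Bnip3, a mitophagy receptor on the outer mitochondrial membrane (ENSMUSG00000078566.8, chromosome 7, 138890836 to 138909506, minus strand), had the deepest night-fed rhythm among the members. It ranged from 64.4 to 354 CPM in CR-night (median 177) and from 58.3 to 211 CPM in AL (median 118). In CR-night it rose from 102 ± 38.7 CPM at CT 0 and 87.3 ± 11.3 at CT 20 to 298 ± 54.5 at CT 12, and in TR-night from 89.9 ± 9.54 at CT 0 to 288 ± 5.88 at CT 12 (SD, n = 4). The CT 12 libraries of both night-fed groups stood well apart from those at CT 0. The fitted peak-to-trough ratio was 3.68-fold in CR-night (peak CT 11.6 ± 0.474, adjusted p = 1.5e-09), 3.23-fold in TR-night (CT 12.2 ± 0.527, 2.93e-08) and 2.13-fold in AL (CT 12.8 ± 0.814, 0.000305). In CR-day the ratio was 1.71-fold with the peak at CT 1.59 ± 1.15 (0.0280). In TR-day Bnip3 missed the threshold with all libraries and passed it without the 2 that went against their label (peak CT 1.00, adjusted p = 0.0211).

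Lipa, the lysosomal acid lipase (ENSMUSG00000024781.15, chromosome 19, 34492318 to 34527474), was rhythmic in AL and in the night-fed groups. In AL it stood at 298 ± 31.9 CPM at CT 20 and 170 ± 25.0 at CT 12, and in CR-night at 322 ± 34.2 and 197 ± 30.3 CPM (SD, n = 4). In CR-day the means of the 6 times of day stayed between 229 and 268 CPM, within each other's spread. The fitted peaks were CT 23.2 ± 0.537 in AL (adjusted p = 4.84e-07), CT 23.4 ± 0.589 in CR-night (2.06e-06) and CT 22.5 ± 0.772 in TR-night (0.000567), with no call in CR-day or TR-day. Lipa was thus highest in the night-fed groups close to CT 0, within the first 12 h after food onset.

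Wipi1, a lipid-binding membrane supply protein, was rhythmic in the 4 fed-on-schedule groups. It fell from 24.8 ± 6.19 CPM at CT 8 to 8.55 ± 3.06 at CT 16 in CR-night, and rose from 8.85 ± 1.49 at CT 4 to 20.3 ± 3.91 at CT 16 in CR-day (SD, n = 4). Its peaks were CT 5.61 ± 0.511 in CR-night (3.11-fold, adjusted p = 4.52e-08), CT 5.71 in TR-night (2.53-fold, 1.74e-05) and CT 17.1 ± 0.825 in CR-day (2.02-fold, 0.00379). Map1lc3b, the LC3 protein used as an autophagosome marker, and Nbr1, a cargo receptor, were called in the same 4 groups. Map1lc3b peaked at CT 19.8 ± 1.07 in CR-day, CT 19.5 in TR-day and CT 11.5 in both night-fed groups. Atg14, the autophagy subunit of the PI3-kinase complex, was called in AL (CT 10.7), CR-day (CT 20.0), CR-night (CT 11.3) and TR-night (CT 9.50).

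The other members that were followed in every comparison were called rhythmic in 0 or 1 liver groups. Sqstm1, the cargo receptor p62, was rhythmic in CR-night alone (peak CT 23.9, amplitude 0.43 ± 0.11 log2, adjusted p = 0.00100), and Ctsl, the protease cathepsin L, in AL alone (CT 7.08, 0.31 ± 0.09 log2, 0.0205). Ulk1 reached an amplitude of 0.58 ± 0.20 log2 in TR-day (adjusted p = 0.0719) and Tfeb 0.57 ± 0.20 log2 in TR-night (0.0934), neither past the threshold. Lamp1 had amplitudes of 0.07 to 0.11 log2, Ctsb of 0.08 to 0.18 log2 and Ctsd of 0.15 to 0.23 log2 over the 5 liver groups, with adjusted p from 0.159 to 0.775. Members differed in the precision of these values, since the SE of an amplitude was 0.04 log2 for Lamp1 and 0.20 log2 for Ulk1 and Tfeb.

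Counted from food onset, the rhythmic members peaked late in the fast. Under CR-day 9 of 10 rhythmic members peaked 12 to 24 h after food onset, under TR-day 10 of 11, under CR-night 14 of 18 and under TR-night 10 of 13. Of all rhythmic genes, 51.8%, 51.8%, 50.0% and 48.5% did so in those groups. The circular median of the members' peaks was 19.68 h after food onset in CR-day, 20.15 h in TR-day, 19.9 h in CR-night and 19.55 h in TR-night, while that of all rhythmic genes was 22.49, 21.77, 13.14 and 3.95 h. Members lay a median of 0.642, 0.616, 3.08 and 2.19 h from theirs. All rhythmic genes lay a median of 5.14, 5.66, 5.82 and 6.04 h away, so their circular medians mark no typical peak time. In the hours without food, 6 to 24 h after its onset, lay the peaks of 9, 11, 17 and 11 members in the same order, against 82.2%, 75.2%, 76.2% and 75.3% of all rhythmic genes. The members peaking within the feeding hours or next to them included Bnip3 in CR-day (1.59 h after food onset) and in TR-night (0.181 h), Optn in TR-night (0.286 h) and Gabarapl2 in CR-night (2.39 h). In AL, where food was not timed, the circular median of the 8 rhythmic members was CT 7.11. Rhythmic members of 1 group are not independent observations, since they come from the same libraries. Liver clock genes, given below, also peaked at other times in day-fed mice. The part of the clock in the members' peak times was not tested.

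**Figure D3:**
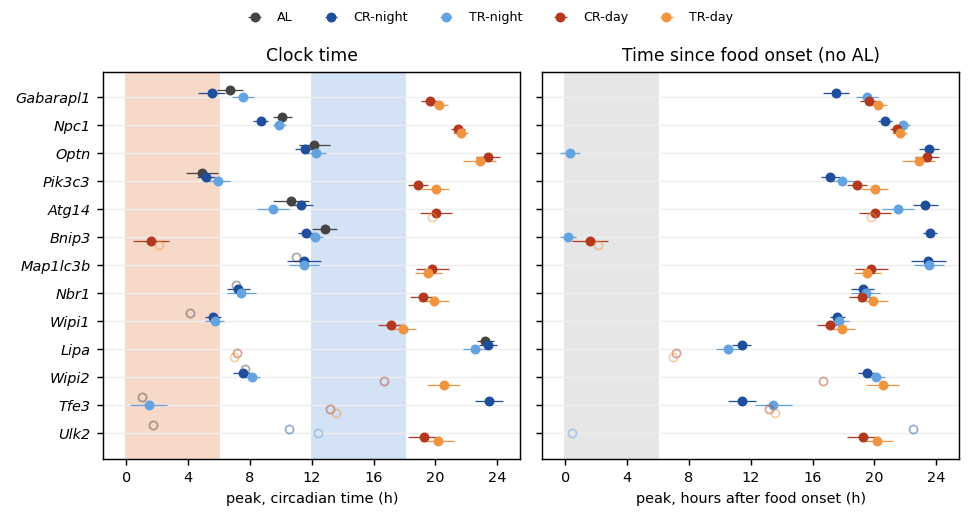
Fitted liver peak with its SE of each member rhythmic in 2 or more liver groups, against CT (left) and hours after food onset without AL (right); filled points passed the rhythm test, open points did not, and shading marks the 6 h of food (red day-fed, blue night-fed, grey both). In CT the day-fed peaks stand apart from AL and night-fed peaks for most members, and on the right most filled points lie 12 to 24 h after food onset.

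Between day-fed mice and AL, 13 of the 41 members changed in rhythm and 28 did not pass the test, and between night-fed mice and AL 0 passed. The rhythm (amplitude and phase together) changed in 13 members between CR-day and AL, against 21.9% of all genes, and in 13 between TR-day and AL, against 16.3%. It changed in 0 members between CR-night and AL (0.0252% of all genes) and in 0 between TR-night and AL (0.00839%), where 4 members each had an unadjusted p under 0.05 and DESeq2 called 0. The 4 comparisons share the AL libraries. Between the day-fed and night-fed groups the rhythm changed in 17 members for CR (34% of all genes) and in 16 for TR (25.8%). Between CR-day and TR-day it changed in 0 members (0.00839% of all genes; 1 at an unadjusted p under 0.05, DESeq2 0), and between CR-night and TR-night in 0 (0% of all genes; 0 at an unadjusted p under 0.05, DESeq2 0).

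For CR-day against AL, the quasi-likelihood test of edgeR gave the smallest Benjamini-Hochberg adjusted p for Npc1 (1.29e-14), Gabarapl1 (1.21e-08), Pik3c3 (9.83e-07), Optn (4.82e-06), Bnip3 (5.82e-06) and Lipa (0.000102). By role, the 13 members held all 3 PI3-kinase genes (Becn1, Pik3c3 and Atg14), Wipi1, Map1lc3b, Gabarapl1, the receptors Nbr1, Optn and Bnip3, Tfe3, Npc1, Ctsl and Lipa. For TR-day against AL the 6 smallest were Npc1 (2.27e-14), Gabarapl1 (4.95e-10), Bnip3 (2.36e-05), Lipa (6.16e-05), Optn (0.000185) and Pik3c3 (0.000378). In the 6 members rhythmic in both CR-day and AL, the peaks lay 9.37 to 11.4 h apart (median 11.1 h), against a median of 10.0 h over the 608 genes rhythmic in both. In the 4 rhythmic in both TR-day and AL they lay 8.86 to 11.5 h apart (median 10.6 h). For CR-night and AL the 7 shared members lay 0.176 to 1.41 h apart (median 0.648 h), and for TR-night and AL 7 lay 0.137 to 1.15 h apart (median 0.681 h). Liver clock genes also had other peak times in day-fed mice. With food at all times Arntl, Dbp and the clock gene Per2 peaked at CT 22.6, 10.3 and 15.3. The CR-day fits gave them CT 12.0, 0.411 and 4.65, and those of TR-day CT 12.7, 1.42 and 5.49. Under CR-night they peaked at CT 21.4, 8.96 and 14.6, and under TR-night at CT 22.4, 10.1 and 15.4. Whether the members' peaks followed the clock or the food was not tested. With 1 day of sampling left out, the count for CR-day against AL was 7 or 5, and with letter A left out 8. For TR-day against AL it was 5 or 3 with 1 day left out. These fits held fewer libraries, and the share of all genes in them is not given here.

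Between the 2 caloric restriction groups the largest contrasts were again Npc1 (adjusted p = 1.84e-17), Pik3c3 (3.62e-10), Wipi1 (6.19e-10), Bnip3 (1.75e-09), Optn (1.32e-08) and Gabarapl1 (4.04e-08). Ulk2, Atg13 and Rb1cc1 of the initiation complex, Atg14, Wipi2, Map1lc3b, Gabarapl2, Sqstm1, Nbr1, Tfe3 and Lipa completed the 17. For time restriction, the 16 were led by Npc1 (2.03e-18), Gabarapl1 (1.32e-11), Wipi2 (1.8e-08), Bnip3 (2.59e-08), Wipi1 (6.19e-08) and Optn (4.73e-07). The peaks of the 9 members rhythmic in both CR groups lay 8.29 to 12.0 h apart (median 10.3 h), and those of the 8 rhythmic in both TR groups 8.02 to 11.8 h (median 11.4 h). Between CR-day and TR-day 8 shared members lay a median of 0.609 h apart, and between CR-night and TR-night 12 lay a median of 0.753 h apart. With the correction for GC content and length the count for TR-day against TR-night was 25, with 36.4% of all genes.

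The same contrasts were fitted once more with the night-fed curves moved by 12 h, so that both groups were read in hours after food onset. Of the 17 members that differed in CT for CR, 14 no longer passed after alignment. For CR, 4 of 41 members differed, against 13.3% of all genes: Becn1, the Beclin 1 subunit of the PI3-kinase complex, which had not passed in CT (adjusted p = 0.00167), Lipa (0.00692), Bnip3 (0.0142) and Wipi2 (0.0277). For TR, 1 member, Bnip3 (0.0420), differed, against 12.3% of all genes, and it missed the threshold without the 2 TR-day libraries. An adjusted p over the threshold does not show that the 2 curves were alike, and 11 members for CR and 7 for TR had an unadjusted p under 0.05. The fitted peaks of liver clock genes also differed between day-fed and night-fed mice, as given above. Their part in the effect of alignment was not tested.

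Read in hours after food onset, Npc1 peaked at 21.5 h in CR-day and 20.7 h in CR-night, a difference of 0.792 ± 0.660 h (SE). Optn peaked at 23.4 and 23.5 h (difference −0.13 ± 1.00 h) and Nbr1 at 19.2 h in both (−0.02 ± 1.13 h). Gabarapl1 peaked at 19.7 and 17.5 h (2.16 ± 1.06 h, adjusted p of the whole rhythm 0.212), while Map1lc3b peaked at 19.8 and 23.5 h (−3.71 ± 1.55 h, 0.187). The gap of Map1lc3b was the widest of the 9. Over the 9 members rhythmic in both CR groups the median difference was −0.02 h, and over the 8 in both TR groups 0.283 h, with Map1lc3b at −3.98 ± 1.30 h there. All of these lay within 4 h, against 68.5% of all genes rhythmic in both CR groups and 65.8% for TR. With the GC and length correction, the counts that differed after alignment were 9 for CR (22.3% of all genes) and 6 for TR (20.1%). Without letter B or without either day the count for CR was 0, from fewer libraries and with the share of all genes not given here.

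Averaged over the day, the levels of many members differed between AL and the restricted groups, and so did those of most genes. TR-day differed from AL in 33 members (11 higher and 22 lower, against 80.4% of all genes, 38.3% higher and 42.1% lower), CR-night in 32 (10 and 22, against 79.2%, 38.1% higher and 41.1% lower) and TR-night in 35 (13 and 22, against 80.7%, 39.4% higher and 41.3% lower). CR-day differed from AL in 6 (1 higher and 5 lower, against 19.6%, 12.6% higher and 6.98% lower). CR-day differed from CR-night in 29 members (19 higher and 10 lower, against 67.9%, 37.8% higher and 30.1% lower) and from TR-day in 31 (21 and 10, against 69.5%, 38.5% higher and 31% lower). TR-day and TR-night differed in 0 members (3.42% of all genes; 3 at an unadjusted p under 0.05, DESeq2 0), and CR-night and TR-night in 0 (0.511%; 6 at an unadjusted p under 0.05, DESeq2 1). The median log2 difference of the members was −0.25 for TR-day, −0.15 for CR-night and −0.20 for TR-night against AL, beside −0.03, −0.02 and −0.01 for all genes.

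These level differences followed the GC content of the genes. Over the 41 members, Spearman's correlation of GC content with the log2 difference was −0.83 for TR-day, −0.84 for CR-night and −0.83 for TR-night against AL, and 0.84 for CR-day against CR-night. It is given as a description, since the genes share their libraries. For TR-day against AL, the members called higher had a median GC content of 42.2% and those called lower 52.8%. Ulk1, which starts autophagosome formation, stood at 27.0 ± 11.2 CPM in CR-night and 66.8 ± 24.3 in AL (SD, n = 24), a log2 difference of −1.30 ± 0.19, and of −0.41 with a correction for GC content and length. Atg3, the conjugation enzyme of the ATG8 family, stood at 175 ± 33.9 and 90.9 ± 35.5 CPM, a log2 difference of 0.94, and of 0.37 with the correction. Map1lc3a went from −1.57 to −0.17, Ctsd from −0.79 to −0.01 and Sqstm1 from −0.63 to −0.06 log2. Lamp1 (−0.15 to 0.16), Lamp2 (0.58 to −0.10) and Tfeb changed sign with the correction, so their values are given below without a direction being read from them. With letter A left out, 0 members differed between CR-day and CR-night or between CR-day and TR-day, with the share of all genes not given here. When counts were summed to 1 value per regimen and letter, 0 members were called in any liver comparison of levels. That fit rested on 2 sums per regimen, and the share of all genes in it is not given here. Its count is thus not read as a result about the members. For CR-day the 2 letters gave opposite signs against AL in many members, for example 0.82 with letter A and −1.90 with letter B for Ulk1.

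**Figure D4:**
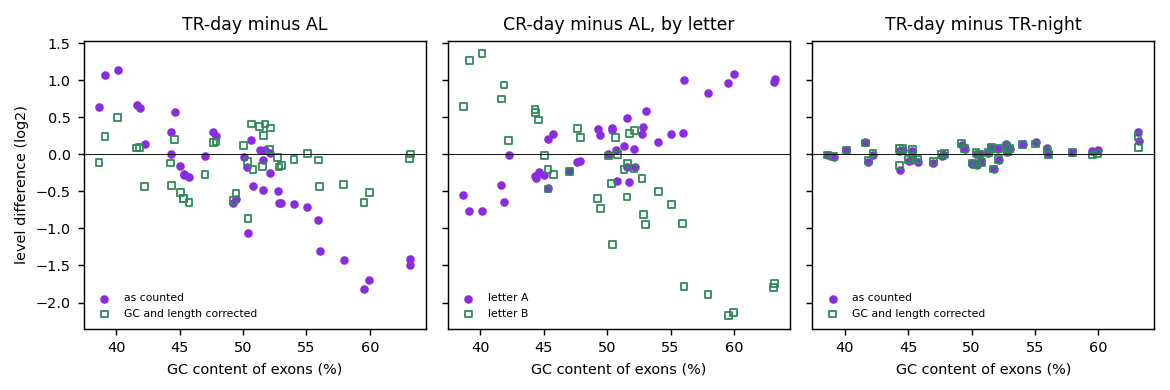
Log2 level difference of each member against the GC content in percent of the exons of its longest transcript. Shown are TR-day minus AL and TR-day minus TR-night (filled as counted, open with GC and length correction) and CR-day minus AL within each letter. TR-day minus AL falls with GC content (Spearman's correlation −0.83), CR-day minus AL runs in opposite directions in letters A and B, and TR-day minus TR-night stays near 0.

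Cathepsin B (Ctsb, ENSMUSG00000021939.7, chromosome 14), a major lysosomal protease, was lower than AL in CR-night, TR-night and TR-day with and without the correction, and was not called in CR-day (−0.10 log2). It ranged from 171 to 392 CPM in AL (median 350), 167 to 299 in CR-night (232), 141 to 257 in TR-night (194) and 152 to 268 in TR-day (210). These 3 groups overlapped the lowest AL libraries but did not reach the AL median. The log2 difference from AL was −0.54 ± 0.08 in CR-night (adjusted p = 2.25e-09), −0.78 ± 0.08 in TR-night (9.31e-15) and −0.65 ± 0.08 in TR-day (5.04e-12), and with the correction −0.54, −0.77 and −0.63. By letter it was 293 ± 52.1 and 363 ± 15.3 CPM in AL letters A and B, 242 ± 34.0 and 211 ± 35.7 in CR-night, and 173 ± 24.1 and 211 ± 23.0 in TR-night (SD, n = 12). The letters parted under CR-day, with 373 ± 39.0 CPM in A and 240 ± 37.8 in B. The macrophage marker sum, whose medians are given above, was also higher in AL than in the TR-day, CR-night and TR-night sets, and its part in the Ctsb difference was not tested.

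Mcoln1, the lysosomal calcium channel (ENSMUSG00000004567.16, chromosome 8, 3500457 to 3515232, plus strand), stood at a median of 27.1 CPM in AL (9.53 to 43.0) and 15.5 CPM in CR-night (8.50 to 23.1). Its log2 difference from AL was −0.82 in CR-night, −0.93 in TR-night and −1.06 in TR-day, and −0.63, −0.73 and −0.87 with the correction. Atg4b, the protease that primes ATG8 proteins, Atg16l1 and Gabarapl2 were lower than AL in all 3 comparisons, in both letters, and with the correction. Both AL letters were among the 3 sets that differed along GC content, so agreement of letters cannot separate regimen from library set. With the correction Atg4b in CR-night stayed near its value (−0.61 as counted, −0.56 corrected), while Atg16l1 grew (−0.36, −0.67). For CR-day against CR-night, letters A and B gave 0.64 and 0.077 for Atg4b and 0.44 and 0.0049 for Atg16l1. Atg4b, Atg16l1, Gabarapl2, Ctsb and Mcoln1 were picked out after their values were seen. Gabarapl2 differed by −0.45, −0.21 and −0.29 log2 in CR-night, TR-night and TR-day, and by −0.72, −0.53 and −0.60 with the correction. In CR-day against AL, Gabarapl2 was lower as well (−0.33 log2, adjusted p = 6.2e-05), as were Ulk2 (−0.23) and Becn1 (−0.15), each also with the correction. Letters A and B gave −0.46 and −0.21 for Gabarapl2, −0.22 and −0.23 for Ulk2, and −0.28 and −0.014 for Becn1. The difference of Becn1 thus lay almost wholly in letter A. The call of Lamp1 (−0.14) ended with the correction (−0.041, adjusted p = 0.625). Mcoln1 (−0.36) and Atg3 (0.37) had opposite signs in letters A and B (0.32 and −1.21 for Mcoln1, −0.76 and 1.36 for Atg3), and the call of Atg3 ended with the correction (0.13). The larger differences as counted shrank with the correction, in CR-night from −1.63 to −0.53 for Gaa, the acid glucosidase, from −1.54 to −0.52 for Atg2a, from −1.20 to −0.41 for Atg9a and from 1.05 to 0.26 for Rb1cc1. The cause of the GC dependence was not tested.

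For TR-night against AL, the log2 differences of the other followed members were Sqstm1 −0.81, Gabarapl1 −0.63, Map1lc3b −0.56, Ctsd −0.98, Bnip3 0.50 and Ctsl 0.22 (adjusted p from 3.45e-13 to 0.0166). With the correction they were −0.19, −0.16, −0.24, −0.13, −0.07 and −0.27 log2. As counted, the members above AL with the smallest p and the same sign in both letters were Atg3, Atg5, Lamp2 and Rb1cc1 in each of CR-night, TR-night and TR-day. In TR-day their log2 differences were 1.13, 0.57, 0.64 and 1.07, and with the correction 0.49, 0.20, −0.11 and 0.24. In CR-night the corrected difference of Atg5 was 0.088 (adjusted p = 0.164), past no threshold. Below AL in TR-day, Gaa went from −1.82 to −0.65 and Atg2a from −1.69 to −0.52 with the correction. For CR-day against CR-night the same rule named Lamp2 (−0.52 as counted, −0.041 corrected), Rb1cc1 (−0.74, −0.26), Atg3 (−0.57, −0.24) and Atg5 (−0.29, −0.073). It also named Map1lc3a (1.36, 0.22), Gaa (1.32, 0.34), Atg2a (1.24, 0.33) and Atg7 (0.64, 0.28), and the calls of Lamp2, Atg5 and Map1lc3a ended with the correction. For CR-day against TR-day it named Ctsb (0.55 as counted, 0.51 corrected), Atg2a (1.39, 0.34), Map1lc3a (1.28, 0.11), Ctsd (0.63, 0.0080), Lamp2 (−0.57, −0.027), Atg5 (−0.44, −0.18), Atg3 (−0.76, −0.36) and Rb1cc1 (−0.76, −0.24). The calls of Map1lc3a, Ctsd and Lamp2 ended with the correction. Between TR-day and TR-night the differences of the 10 followed members lay between −0.21 log2 (Ctsl, 391 ± 78.7 against 455 ± 64.7 CPM) and 0.18 log2 (Tfeb, 1.57 ± 0.591 against 1.43 ± 0.684 CPM). Between CR-night and TR-night they lay between −0.12 (Ctsl) and 0.37 log2 (Tfeb, SE 0.21). None of these passed the threshold. With letter B left out, however, 22 members differed between CR-night and TR-night. The share of all genes in that fit is not given here, so the count is not read as particular to the members.

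In BAT, 3 of the 41 members were rhythmic in AL (10.5% of all genes tested) and 12 in CR-day (15.1%). In all 14 members (34.1%) were rhythmic in at least 1 of the 2 groups, against 22.8% of all genes. In AL these were Wipi2 (peak CT 7.92 ± 0.753), Gabarapl1 (CT 15.2 ± 0.985) and Lipa (CT 6.49 ± 1.03). In CR-day they were Ulk1, Atg2a, Atg3, Atg4b, Atg5, Gabarap, Gabarapl1, Sqstm1, Nbr1, Optn, Npc1 and Hexa. Of those 12, 8 peaked 12 to 24 h after food onset (50.6% of all rhythmic genes), with a circular median of 21.8 h. Ulk1, which was called in 0 liver groups, peaked at CT 21.8 in CR-day BAT (amplitude 0.54 ± 0.16 log2, adjusted p = 0.0130). With either day left out, and so fewer libraries, 0 members were called in either group, and with no filter on low counts 6 were called in CR-day. The share of all genes in these fits is not given here.

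The rhythm of 5 members changed in BAT between CR-day and AL, against 12.1% of all genes. Gabarapl1 ranged from 24.7 to 64.3 CPM in AL (median 44.4, n = 12) and from 28.4 to 91.4 CPM in CR-day (median 59.5, n = 11). In AL it rose from 32.9 ± 11.6 CPM at CT 0 to 61.5 ± 3.99 at CT 16, and in CR-day it was lowest at CT 8 (32.4 ± 5.76) and highest at CT 20 (75.5 ± 22.5; SD, n = 2 each). Its peak moved from CT 15.2 to CT 22.1, by 6.90 ± 1.28 h (adjusted p = 0.00716). Hexa, a subunit of the lysosomal hexosaminidase (ENSMUSG00000025232.8, chromosome 9, 59539540 to 59565109), ranged from 12.8 to 22.9 CPM in AL and from 10.3 to 24.4 CPM in CR-day. In CR-day it fell to 11.4 ± 1.47 CPM at CT 12 and reached 23.0 ± 1.99 at CT 20, and its rhythm changed with an adjusted p of 0.00961.

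Lipa in BAT was highest in AL at CT 4 (89.4 ± 11.6 CPM) and lowest at CT 16 (45.9 ± 7.59; SD, n = 2 each), and in CR-day was lowest at CT 4 (49.9 ± 1.65) and highest in the lone library at CT 0 (87.1 CPM). Its fitted peak was CT 6.49 in AL and CT 20.3 in CR-day (adjusted p of the change 0.0330). Wipi2, called rhythmic in AL alone, had fitted peaks at CT 7.92 in AL and CT 23.1 in CR-day (0.0116). Gabarap, called in CR-day alone, had CT 14.2 and CT 21.3 (0.0268). A move of the peak is not shown for either. With either day of sampling left out, and so fewer libraries, 0 members changed, with the share of all genes not given here. The summed skeletal muscle markers had a median of 1332 CPM in AL and 386 CPM in CR-day BAT, and their part in these values was not tested.

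**Figure D5:**
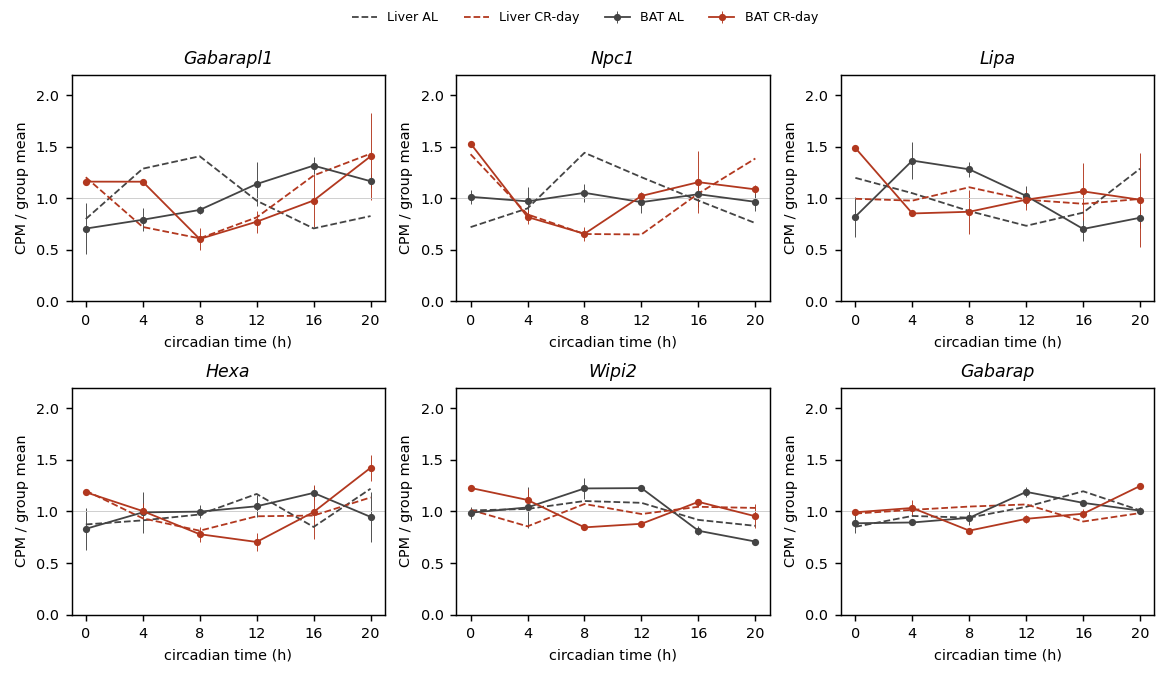
Level by CT divided by the group's mean (no unit) for 6 members in BAT AL and BAT CR-day (solid, mean and SD of 2 libraries, 1 at CT 0 in CR-day) and in the same liver groups (dashed, means of 4). Gabarapl1 was highest at CT 16 in BAT AL and at CT 20 in BAT CR-day, and at CT 8 and CT 20 in liver.

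No member's level over the day was called different in BAT: 0 of 41 passed the threshold (6.57% of all genes), with 12 at an unadjusted p under 0.05 and 2 called by DESeq2. Ctsl came closest with 69.2 ± 9.15 CPM in CR-day and 59.4 ± 7.89 in AL (log2 difference 0.23 ± 0.07, adjusted p = 0.0505), followed by Gabarap (−0.20, 0.0589) and Tfeb (−0.41 ± 0.14, 0.0854). Ctsb stood at 507 ± 52.3 CPM in CR-day and 564 ± 88.4 in AL, and Ctsd at 420 ± 97.3 and 422 ± 81.0. Both groups overlapped in each of these genes. In the CR-day BAT sample at 0 h, for which RPKM values and no counts were used, 32 members lay within the range of the other 11 CR-day libraries, 6 below and 3 above, among them Bnip3 at 94.2 RPKM against 31.7 to 53.1.

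The filter for the model of both tissues together kept 12799 genes, more than passed in either tissue alone. The response to CR-day differed between BAT and liver in the rhythm of 6 members, against 4.31% of those genes. They include genes that did not pass in each tissue, while all 41 members did, so the 2 shares are not of like genes. The test was the interaction of tissue and regimen. The adjusted p was 0.000724 for Lipa, 0.00139 for Gabarapl1, 0.0143 for Nbr1, 0.0189 for Npc1, 0.0268 for Optn and 0.0474 for Wipi1. In AL, Gabarapl1 peaked at CT 15.2 in BAT and CT 6.68 in liver, and in CR-day at CT 22.1 and CT 19.7. For Lipa the AL peaks were CT 6.49 in BAT and CT 23.2 in liver, and the CR-day fits were CT 20.3 and CT 7.14, neither rhythmic at the threshold in CR-day. Npc1 in BAT was rhythmic in CR-day alone (peak CT 19.6, adjusted p = 0.0238) and ran between 31.6 and 34.6 CPM over the AL day, while in liver it was rhythmic in both groups. Nbr1 and Optn in CR-day peaked at CT 6.59 and CT 4.55 in BAT and at CT 19.2 and CT 23.4 in liver. The level response differed in 1 member, Gabarapl2 (2.16% of all genes, 0.945% with the higher value in BAT), with a log2 difference from AL of 0.06 in BAT and −0.33 in liver (0.40 ± 0.11 between them, adjusted p = 0.0353). When the liver libraries were limited to the letters present in BAT, 3 members differed in rhythm and 10 in level, and the calls of Nbr1 (adjusted p = 0.0902), Optn (0.156) and Wipi1 (0.114) ended. In that fit, letter A of AL liver is among the sets that differed along GC content and letter B of CR-day is not. The share of all genes in it is not given here, so its counts are not read as particular to the members. With the GC and length correction those of Npc1 (0.105) and Wipi1 (0.117) ended.

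Neighbouring gene lists of the pathway gave the following counts of rhythmic genes. In the order AL, CR-day, TR-day, CR-night and TR-night they stand beside 8, 10, 11, 18 and 13 of the 41 members and 12.4%, 16.4%, 15.5%, 35.3% and 26.4% of all genes. Of 16 V-ATPase subunits, which acidify the lysosome, the liver of AL mice had 2 rhythmic, that of CR-day and CR-night mice 6 each, of TR-day mice 1 and of TR-night mice 2. In the same order, the counts were 4, 6, 5, 14 and 11 of 36 other lysosomal hydrolases and membrane proteins, and of 33 other autophagy genes 10, 4, 7, 16 and 14. Of 28 genes of mTORC1 and AMPK control they were 5, 7, 4, 10 and 9. The rhythm changed between CR-day and AL in 6 of the V-ATPase subunits, 9 of the lysosomal genes, 9 of the other autophagy genes and 11 of the control genes, beside 13 members and 21.9% of all genes. Between CR-night and AL and between TR-night and AL it changed in 0 genes of any of the 4 lists. After alignment to food onset, 1, 3, 5 and 2 genes of the 4 lists differed between CR-day and CR-night, beside 4 members and 13.3% of all genes. In BAT the rhythm changed in 2, 4, 5 and 4 of them, beside 5 members and 12.1% of all genes.

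The counts of some members may hold reads of other genes. In the GENCODE vM21 annotation, 16 of the 41 members share exon bases with another gene, 15 of them on the opposite strand, and whether strand was used in counting is not stated. On the opposite strand, the longest shared stretches were 1297 bases in Becn1, 977 in Ctsl, 774 in Ctsb, 580 in Sqstm1, 383 in Atg2b, 377 in Gabarapl1, 342 in Bnip3, 319 in Npc1, 313 in Rb1cc1, 255 in Hexa, 239 in Atg14 and 177 in Lamp1, with shorter ones in Optn, Map1lc3b and Atg9a. On the same strand, Atg9a shares 1072 bases, Ctsl 395 with a processed pseudogene, and Ctsd 227. The values of these 16 members are uncertain to that extent.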

How the data were processed

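The deposited tables hold, per the file headers, raw counts per gene for liver and BAT and, in separate sheets, RPKM values with the gene length used. FastQC, cutadapt, STAR and featureCounts are named in the submitters' processing notes, with versions and genome build not given in the sources used here. RPKM times length was proportional to the counts in 143 of 143 libraries (relative tolerance 1e-04). In the count sheet of CR-day BAT, 1 column held the values of the liver CR-day library at 44 h, letter B; it was not used, and the sample at 0 h has no counts here.

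Genes were filtered with filterByExpr and scaled by TMM, and 1 model per tissue with a 24 h cosine and sine per group was fitted with edgeR 4.0.16 (R 4.3.3, limma 3.58.1). Rhythm, rhythm change, rhythm change after moving night-fed curves by 12 h, and level were tested with the quasi-likelihood test of edgeR, at a Benjamini-Hochberg adjusted p under 0.05 over all genes. Amplitudes and peaks come from log2 CPM with a prior count of 2, which understates folds of low genes. The fits were tested on simulated data. GC content and the length used in the correction came from the longest GENCODE vM21 transcript of each gene, for 99.9% of liver genes. Alternatives included DESeq2 1.42.0, other size factors, no filter, a GC and length correction, and leaving out letters, days or libraries.

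The members and the lists were chosen with earlier results of these data known. The named members were 10 followed throughout (Ulk1, Map1lc3b, Gabarapl1, Sqstm1, Tfeb, Lamp1, Ctsb, Ctsd, Ctsl and Bnip3), the 6 of smallest p per rhythm comparison, and the 4 rising and 4 falling of smallest p per level comparison with the same sign in both letters or days.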

Additional observations from a re-analysis of the deposited data

Results flagged for a closer look

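The response to CR-day differed between BAT and liver in 7 tests, by the interaction of tissue and regimen in the quasi-likelihood test of edgeR, with Benjamini-Hochberg adjustment over 12799 genes. In rhythm, the adjusted p was 0.000724 for Lipa, 0.00139 for Gabarapl1, 0.0143 for Nbr1, 0.0189 for Npc1, 0.0268 for Optn and 0.0474 for Wipi1. In level it was 0.0353 for Gabarapl2. Nbr1 had fitted peaks at CT 23.1 in AL and CT 6.59 in CR-day in BAT, and at CT 7.06 and CT 19.2 in liver. Optn had CT 19.6 and CT 4.55 in BAT and CT 12.1 and CT 23.4 in liver. Wipi1 had CT 21.1 and CT 4.68 in BAT and CT 4.13 and CT 17.1 in liver. Several of these peaks are of fits that missed the rhythm test. Those are Nbr1 and Wipi1 in AL of both tissues, Optn in AL BAT and Wipi1 in CR-day BAT. Npc1 had CT 9.93, where it was not called rhythmic, and CT 19.6 in BAT, and CT 10.1 and CT 21.5 in liver. With liver letters matched to BAT the calls of Nbr1 (adjusted p = 0.0902), Optn (0.156) and Wipi1 (0.114) ended, and with the GC and length correction those of Npc1 (0.105) and Wipi1 (0.117). With 1 day of sampling left out, and so fewer libraries, 1 or 0 members differed in rhythm, with the share of all genes not given here.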

How the results depend on the processing

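Of the values that summarise a comparison, 353 kept their call or stayed near their value and 90 moved. Of single-gene values, 1706 stayed the same, 240 fell below the threshold, 27 rose past it and 45 changed sign. The counts below are of members, without the share of all genes under each setting, so a moved count may not be particular to the members.

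With cosines of 24 h and 12 h, 5 members were rhythmic in AL and 7 in TR-day liver, 1 in AL and 4 in CR-day BAT, 1 changed in BAT and 2 differed between tissues. With the GC and length correction, 16 were rhythmic in CR-day, 21 in TR-night and 5 in AL BAT, 25 changed between TR-day and TR-night and 10 in BAT, 9 (CR) and 6 (TR) differed after alignment to food, and 2 differed in level in BAT. Libraries of the same letter and time did not deviate together between liver groups (median correlations per pair of groups of −0.373 to 0.182, and of −0.136 to 0.481 for the other letter). The main fits thus did not pair letters. The −0.373 and the 0.481 were both for AL and CR-day, which hold the library sets that differed along GC content. These correlations therefore cannot exclude a pairing by letter. With the letter as a replicate block and the GC and length correction the counts were 16, 23, 25, 10 for CR and 6 for TR. With the replicate block alone, 1 member differed in level between CR-night and TR-night, as with DESeq2 and without distant libraries, and no other count moved by over 1.5 times. With DESeq2, 6 members were rhythmic in AL BAT, 8 changed and 2 differed in level there, and with RLE size factors 1 did. With no filter, 6 were rhythmic in CR-day BAT, and 0 differed after alignment (TR) or in level between tissues. Without distant libraries, 3 differed after alignment (TR) and 0 in level between tissues, and without the 2 TR-day libraries 0 after alignment (TR). With matched letters 3 differed in rhythm and 10 in level between tissues. Sums per regimen and letter called 0 members in level.

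With 1 letter or day left out, rhythmic members ranged from 2 to 10 in AL, 2 to 9 in CR-day, 2 to 10 in TR-day, 8 to 16 in CR-night, 7 to 15 in TR-night and 0 in BAT. Changed members ranged from 5 to 15 (CR-day against AL), 3 to 12 (TR-day against AL), 10 to 18 (CR, 11 without day 1), 9 to 14 (TR), 0 in BAT and 0 to 1 between tissues. After alignment they ranged from 0 to 6 (CR) and 0 to 3 (TR). Level counts ranged from 1 to 34 (CR-day against AL), 30 to 32 (TR-day), 27 to 32 (CR-night), 30 to 33 (TR-night), 0 to 32 (CR-day against CR-night and TR-day), 0 to 22 (CR-night against TR-night), 0 to 2 (TR-day against TR-night) and 0 between tissues; CR-day gave 34 against AL and 0 against CR-night and TR-day without letter A, 32 against AL without letter B and 14 against CR-night without day 2, and the 22 and the 2 arose without letter B. Median peak distances from AL ranged from 0.917 to 1.35 h for CR-night (1.18 h without letter B) and from 0.811 to 1.25 h for TR-night.

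Signs changed with the GC and length correction, without and with the replicate block: in CR-day against CR-night Bnip3 0.042 and 0.045, Ctsd −0.055 and −0.050, Lamp1 −0.20 and Tfeb −0.086 and −0.10; in CR-night against AL Bnip3 −0.018 and −0.021, Ctsl −0.38, Lamp1 0.16 and 0.17, Lamp2 −0.10 and Tfeb 0.15 and 0.14; in TR-day against AL Ctsl −0.42 and −0.44, Lamp1 0.25, Lamp2 −0.11 and Tfeb 0.0046; in TR-night against AL Bnip3 −0.066 and −0.068, Ctsl −0.27 and −0.28, Lamp1 0.16 and Lamp2 −0.10. With a letter left out, CR-day against AL ranged from −0.41 to 0.75 for Bnip3, −0.59 to 0.34 for Ctsb, −0.93 to 0.29 for Ctsd, −0.33 to 0.56 for Ctsl, −0.33 to 0.27 for Gabarapl1, −0.58 to 0.49 for Map1lc3b, −1.74 to 1.01 for Tfeb and −1.90 to 0.82 for Ulk1. Ctsl ranged from −0.29 to 0.30 against CR-night and, for TR-day against AL, from −0.27 to 0.30, and in CR-day against TR-day Tfeb from −0.031 to 1.90 and Ulk1 from −0.11 to 1.75. All are log2 differences, and the cause was not tested. Depth limits the low members most: Tfeb, at mean levels of 1.43 to 4.21 CPM in liver, had an amplitude SE of 0.20 log2.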
